A study of Homo sapiens with 4 samples.

Results

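The CC and CX3C chemokine ligands described here are CCL2, CCL3, CCL5, CCL7, CCL17, CCL20, CCL22, CCL26, CCL28 and CX3CL1. They were chosen by symbol and found through their Ensembl identifiers in GENCODE 29, and all 10 were present among the 58735 genes of the count table. RNA-seq had been done on A549, an established human lung adenocarcinoma line, to compare UHRF1 KO cells (2 libraries) with non-targeting control cells (2 libraries). Both groups received a lentiCRISPRv2-hygro lentivirus, carrying a guide against UHRF1 or a non-targeting guide, and both were selected with hygromycin. UHRF1 recognises newly replicated, hemimethylated DNA and brings DNMT1, which copies the methylation, to it. The sources used here do not say whether the cells were a pool or a clone, nor how long after infection they were harvested.

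Chemokines are small secreted proteins that direct the migration of leukocytes through G protein-coupled receptors. CC ligands carry adjacent cysteines near the N-terminus, whereas CX3CL1 (fractalkine) is made as a membrane-anchored protein whose chemokine domain sits on a mucin-like stalk. In airway epithelium several of them are known to be induced by TNF, interleukin-1 and interferons through NF-kB, AP-1 and IRF factors, and CCL17 and CCL26 also by interleukin-4 and interleukin-13 through STAT6.

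Each library held between 18604598 and 23977168 counts. Levels are given in CPM, the count scaled to a common library size after TMM normalization, with means ± SD over n = 2 libraries. A positive log2 fold change means higher in UHRF1 KO, and its standard error (SE) is approximate. Of all genes, 17030 passed a filter on low counts (about 0.51 CPM in at least 2 libraries) and were tested with edgeR's quasi-likelihood test. A gene is called at a Benjamini-Hochberg adjusted p under 0.05 over all genes tested. The labels do not say that a group's libraries were grown as separate cultures; the p-values then reflect only how far these libraries differed, which may be technical variation. The targeted gene, UHRF1, had 1740 and 1834 counts in control and 811 and 1000 in UHRF1 KO (log2 fold change -1.31, SE 0.055). RNA can persist after a gene is cut, and protein was not measured. At least 1 count was found for 24504 to 24600 genes per control library and 28486 to 29341 per UHRF1 KO library.

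The chemokine ligands rose in UHRF1 KO. Of the 9 that were tested, 9 were called higher and 0 lower (0 lower at an unadjusted p under 0.05, and 9 higher and 0 lower with DESeq2 and with limma-voom), where 32% of all genes tested were called higher, 30.1% lower and 62% in either direction. Calls of at least 2-fold higher numbered 8, with CCL2 just under that size, against 15.4% of all genes tested, and calls of at least 4-fold higher numbered 7, against 7.76%. Only CCL2, CCL5, CCL20 and CX3CL1 met the filter's CPM minimum in both control libraries. Among the 14832 genes that did so, 26.7% were called higher. CCL3, CCL17, CCL22, CCL26 and CCL28 passed the filter only because of their UHRF1 KO levels, so they had to be higher and their count supports nothing. CCL7 did not pass it. In bulk RNA, fewer cells making a transcript and less of it per cell cannot be told apart.

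Promoter sequence is shown first for CCL20 and CCL22, the ligands with the largest fold changes, and for CCL7, which stayed near 0. RefSeq promoters (GRCh38.p14) were found for 6 ligands, CCL3, CCL7, CCL20, CCL22, CCL26 and CCL28, and not for CCL2, CCL5, CCL17 and CX3CL1. Each line gives the 250 bases before the RefSeq start, 5′ to 3′ on the gene's strand, and capitals mark a match to the NF-kB (kB) consensus. The windows are chr2:227813592-227813841 (plus strand) for CCL20, chr16:57358533-57358782 (plus strand) for CCL22 and chr17:34269971-34270220 (plus strand) for CCL7.
CCL20: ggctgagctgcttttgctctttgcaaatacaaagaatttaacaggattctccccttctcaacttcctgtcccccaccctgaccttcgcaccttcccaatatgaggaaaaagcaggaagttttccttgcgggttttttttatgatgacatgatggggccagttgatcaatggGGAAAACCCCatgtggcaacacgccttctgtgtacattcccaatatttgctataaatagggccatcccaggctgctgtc
CCL22: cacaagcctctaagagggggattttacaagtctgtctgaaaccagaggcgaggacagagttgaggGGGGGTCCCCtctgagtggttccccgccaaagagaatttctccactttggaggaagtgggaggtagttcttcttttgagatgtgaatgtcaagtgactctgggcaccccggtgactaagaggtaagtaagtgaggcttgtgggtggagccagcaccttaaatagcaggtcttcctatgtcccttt
CCL7: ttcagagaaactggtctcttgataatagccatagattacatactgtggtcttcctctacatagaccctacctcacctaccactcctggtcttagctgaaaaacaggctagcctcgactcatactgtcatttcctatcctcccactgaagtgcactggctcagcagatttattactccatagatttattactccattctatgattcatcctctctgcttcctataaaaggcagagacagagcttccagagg
The match in CCL20 is GGAAAACCCC, from 79 to 70 bases before the start, and that in CCL22 is GGGGGTCCCC, from 185 to 176 bases before it. All motifs were searched on both strands. The kB consensus is in 5.21% of 35116 RefSeq promoter windows of this length, and was found in 2 of the 6 ligands. A narrower kB motif (1.73% of windows) was found in CCL20 alone. The AP-1 motif TGANTCA (6.57%) was found in CCL7, and the TATA motif TATAAA (10.7%) in CCL3, CCL7 and CCL20. A STAT motif (5.38%) and an interferon-response motif (3.02%) were found in 0 of the 6. These are letter matches in 1 window per gene, not binding sites. CpG dinucleotides numbered 1 to 4 in the 6 windows, against a median of 11 over all windows (quartiles 3 and 23). CCL26 had 4, CCL20 and CCL22 had 3, CCL3 and CCL28 had 2 and CCL7 had 1. DNA methylation was not measured in these libraries.

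Among the ligands known to attract monocytes and memory T cells, CCL5 was the most abundant in both groups. CCL5 (RANTES, ENSG00000271503, GRCh38 chromosome 17, 35871491 to 35880793, minus strand) is a ligand of CCR1 and CCR3. It had 3026 and 2980 counts in control and 11753 and 14147 in UHRF1 KO, or 169.7 and 160.6 against 566.7 and 569.1 CPM. Both UHRF1 KO libraries lay far above both controls, and the difference was many times the spread within either pair. The log2 fold change was 1.78 (SE 0.038), 3.44-fold higher (edgeR adjusted p = 1.33e-28). An antisense gene that overlaps CCL5, AC015849.1, had between 2 and 12 counts per library; whether counting used strand is not stated in the sources used here.

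CCL2 (MCP-1, ENSG00000108691, chromosome 17, 34255218 to 34257203, plus strand), the main CCR2 ligand and an attractant of monocytes, showed the smallest rise of the tested ligands. It stood at 11.3 and 10.9 CPM in control against 21.7 and 22.4 CPM in UHRF1 KO, from 201, 203, 449 and 556 counts. The groups did not overlap, as for 41.6% of all genes tested with both UHRF1 KO libraries above both controls. The log2 fold change was 0.99 (SE 0.10), or 1.98-fold (edgeR adjusted p = 2.50e-10). CCL7 (MCP-3, ENSG00000108688, chromosome 17, 34270221 to 34272242, plus strand), another CCR2 ligand, lies 13.0 kb from CCL2. It had 0 counts in both controls and 1 count in each UHRF1 KO library. No difference in CCL7 was detectable at this depth, since 0 counts in a library allow up to 3, or 0.168 and 0.162 CPM in the controls.

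CCL3 (MIP-1α, ENSG00000277632, chromosome 17, 36088256 to 36090169, minus strand), a ligand of CCR1, had 4 and 2 counts in control and 57 and 70 in UHRF1 KO. In CPM these were 0.224 and 0.108 against 2.75 and 2.82. CCL3 was thus near the detection limit in control and low but clearly counted in UHRF1 KO. Its log2 fold change was 4.03 (SE 0.45), 16.3-fold higher (edgeR adjusted p = 2.60e-09). CCL3L1 is a near-identical copy of CCL3, so how reads were divided between them is uncertain.

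CCL20 (MIP-3α, ENSG00000115009, chromosome 2, 227805739 to 227817564, plus strand), the chemokine ligand of CCR6 that attracts Th17 cells and immature dendritic cells to mucosal surfaces, changed most in absolute CPM after CCL5. Its counts were 33 and 45 in control and 1802 and 2179 in UHRF1 KO, or 1.85 and 2.43 against 86.9 and 87.7 CPM. The UHRF1 KO libraries differed from each other by far less than from the controls. CCL20 was 40.6-fold higher (log2 5.34, SE 0.10, edgeR adjusted p = 1.36e-29). CCL28 (ENSG00000151882, chromosome 5, 43376645 to 43412391, minus strand), the mucosal epithelial ligand of CCR3 and CCR10, had 0 and 3 counts in control and 34 and 39 in UHRF1 KO. Those 3 control counts all lie in control 2, and the UHRF1 KO levels were 1.64 and 1.57 CPM. The ratio of UHRF1 KO to control was 19.4 (95% exact interval 6.39 to 96.3, counting error only; edgeR adjusted p = 6.86e-07). Without control 2 the remaining control has 0 counts, and CCL28 was at least 9.53-fold higher against 3 counts in that library; without control 1 the ratio was 9.92.

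The ligands of type 2 immunity were at or near 0 in control and were counted in every UHRF1 KO library. CCL17 (TARC, ENSG00000102970, chromosome 16, 57404767 to 57416062, plus strand), a CCR4 ligand, had 6 counts in each control and 32 and 44 in UHRF1 KO, or 0.336 and 0.323 against 1.54 and 1.77 CPM. The log2 fold change was 2.31 (SE 0.44), 4.97-fold higher (edgeR adjusted p = 2.99e-05). CCL22 (MDC, ENSG00000102962, chromosome 16, 57358772 to 57366190, plus strand), the other CCR4 ligand, had 0 counts in both controls and 103 and 144 in UHRF1 KO, where it reached 4.97 and 5.79 CPM. It was at least 65.2-fold higher against 3 counts over both control libraries (edgeR adjusted p = 3.45e-14). Against 3 counts in control 1 or control 2 alone, the bound was 32.0-fold or 33.3-fold; the other bounds set over both controls fall in the same way, since the floor then covers 1 library. CCL26 (eotaxin-3, ENSG00000006606, chromosome 7, 75769533 to 75789896, minus strand), a CCR3 ligand that attracts eosinophils, had 9 and 6 counts in control and 83 and 105 in UHRF1 KO. The mean went from 0.41 ± 0.13 to 4.11 ± 0.16 CPM (SD, n = 2), with no overlap between the groups. CCL26 was 9.85-fold higher (log2 3.30, SE 0.33, edgeR adjusted p = 2.17e-10).

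CX3CL1 (ENSG00000006210, chromosome 16, 57372458 to 57385048, plus strand), the ligand of CX3CR1 that can act as an adhesion molecule when membrane-bound, had 26 and 19 counts in control and 606 and 747 in UHRF1 KO. In CPM these were 1.46 and 1.02 against 29.2 and 30.0. No control library approached either UHRF1 KO library. The log2 fold change was 4.58 (SE 0.15), 23.9-fold higher (edgeR adjusted p = 5.59e-23).

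**Figure D1:**
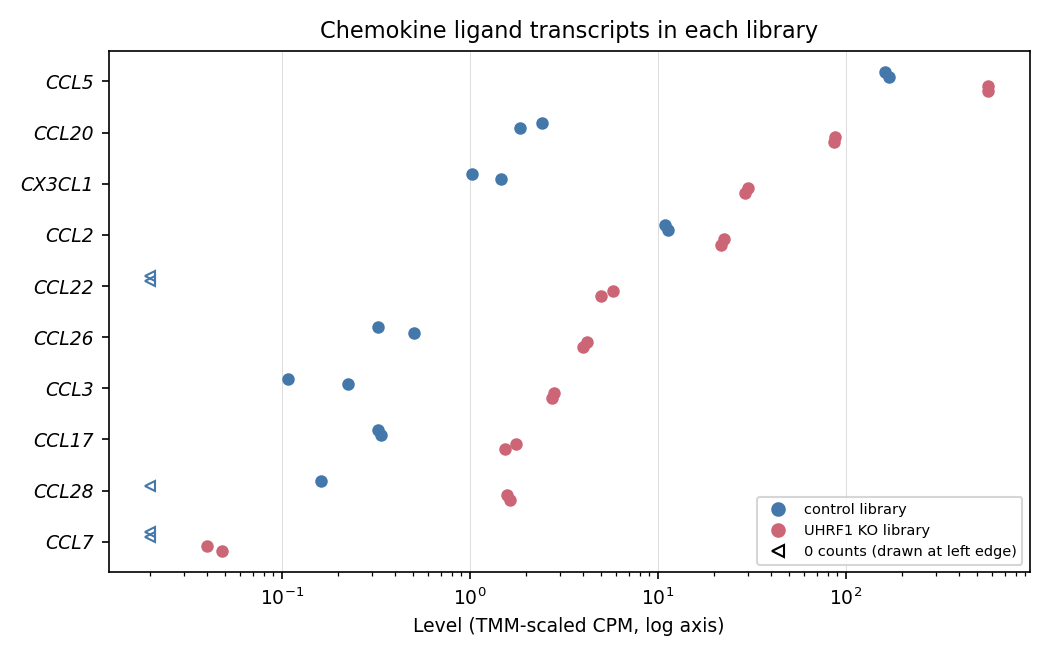
Level of each ligand in each of the 4 libraries, in CPM on a logarithmic axis, with ligands ordered by their UHRF1 KO level. CCL5 stands highest in both groups and CCL20 is next in UHRF1 KO. Both UHRF1 KO libraries lie above both controls for the 9 tested ligands, as for 41.6% of all genes tested. Of these ligands, 5 passed the filter only through UHRF1 KO and had to be higher.

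**Figure D2:**
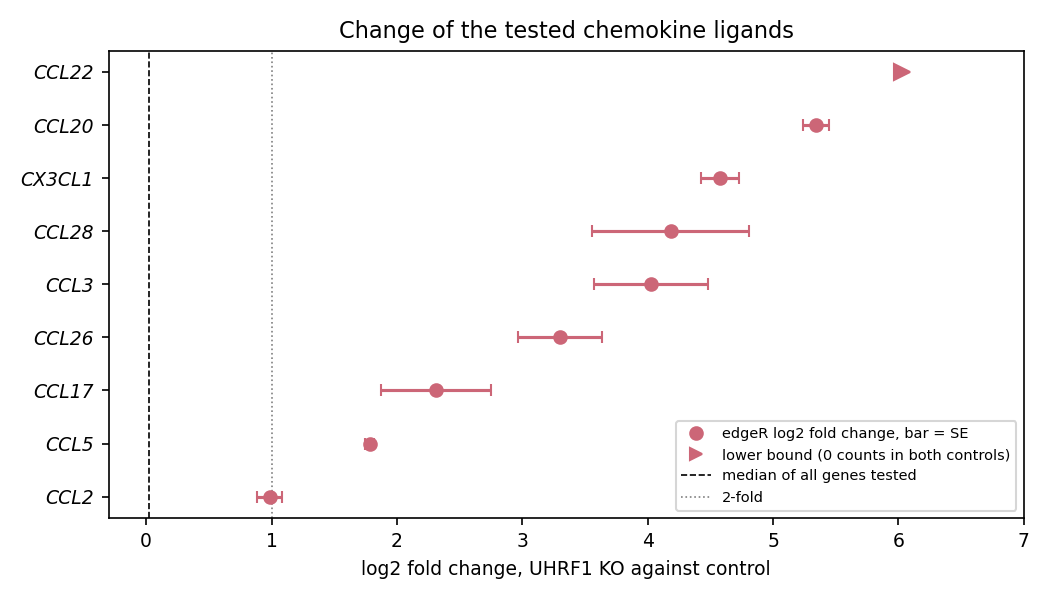
Log2 fold change of each tested ligand (UHRF1 KO against control) with its approximate SE, a lower bound being drawn for CCL22. The changes run from 0.99 for CCL2 to 5.34 for CCL20 among ligands with counts in both controls.

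Summed over the 10 ligands, the control libraries held 185.3 and 175.9 CPM, and the UHRF1 KO libraries 719.4 and 725.4 CPM. CCL5 made up 91.6% and 91.3% of that sum in control and 78.8% and 78.5% in UHRF1 KO. Without CCL5 the sum was 15.7 and 15.3 CPM in control against 152.7 and 156.3 CPM in UHRF1 KO.

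To compare ligands with each other, levels were divided by exon length (CPM per kilobase of annotated exon). On that scale the control order was CCL5 (109.2), CCL2 (5.59), CCL20 (1.34), CCL26 (0.587), CCL17 (0.532), CX3CL1 (0.207), CCL3 (0.111) and CCL28 (0.018), with CCL22 and CCL7 at 0. CCL26 and CCL17 overlapped between libraries. In UHRF1 KO the length-scaled order was CCL5 (375.6), CCL20 (54.8), CCL2 (11.1), CCL26 (5.83), CX3CL1 (4.95), CCL17 (2.67), CCL3 (1.86), CCL22 (1.84), CCL28 (0.355) and CCL7 (0.051), and CCL3 and CCL22 overlapped. CCL20 thus stood below CCL2 in control and above it in UHRF1 KO. Dividing by the longest transcript instead gave the same ranks for 10 of 10 ligands.

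Of the receptors of these ligands, CCR4, the shared receptor of CCL17 and CCL22, changed from undetected to counted. CCR4 had 0 counts in both controls and 140 and 136 in UHRF1 KO (6.75 and 5.47 CPM), at least 74.1-fold higher against 3 counts over both controls (edgeR adjusted p = 9.21e-15). CCR7, the receptor of CCL19 and CCL21, had 56 and 66 counts in control and 235 and 259 in UHRF1 KO (log2 fold change 1.69, SE 0.16, edgeR adjusted p = 4.16e-11). Counts of CCRL2, an atypical receptor that does not signal through G proteins, were 8 and 5 against 22 and 22 (log2 fold change 1.42, SE 0.49, edgeR adjusted p = 0.0126). That call is weak: DESeq2 gave 0.114, and it was lost without control 2 (0.147), without UHRF1 KO 1 (0.123) and without UHRF1 KO 2 (0.0520).

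No other receptor was called among the genes that passed the filter. CCR10, the receptor of CCL28, had 13 and 22 counts in control and 11 and 20 in UHRF1 KO (log2 fold change -0.50, edgeR adjusted p = 0.321), with overlapping groups. CX3CR1, the receptor of CX3CL1, did not pass the filter and had 3 and 1 counts against 11 and 12, a ratio of 4.59 (95% exact interval 1.57 to 18.3). CX3CR1 was called higher by edgeR with no filter on low counts (adjusted p = 0.0385) and without control 1 (0.0485), and not without control 2 (0.226) or without UHRF1 KO 2 (0.0689). CCR1 had 2, 0, 4 and 10 counts, ACKR1 had 0, 1, 6 and 7, and ACKR4 had 4, 9, 9 and 13, in the order control 1, control 2, UHRF1 KO 1, UHRF1 KO 2. Chosen after their values were seen, CCR6, the receptor of CCL20, had 1 count over all 4 libraries, and CCR2, the receptor of CCL2 and CCL7, had 0. Of the 16 receptors listed, 4 were tested, with 3 called higher and 0 lower (2 higher with DESeq2, 3 with limma-voom, and 0 lower at an unadjusted p under 0.05). Across all genes tested, 32% were called higher and 30.1% lower. Of the 4 receptors tested, only CCR7 and CCR10 met the CPM minimum in both controls, and of these CCR7 was higher. Among all genes that met it, 26.7% were called higher. CCR4 and CCRL2 passed the filter through UHRF1 KO alone and had to be higher.

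**Figure D3:**
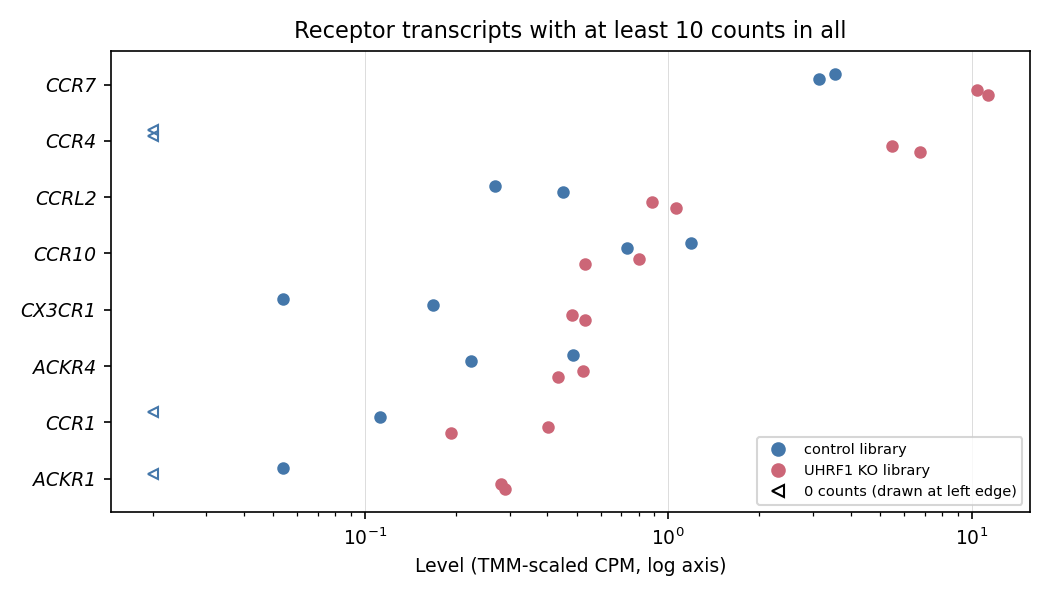
Level of each receptor with at least 10 counts over the 4 libraries, in CPM on a logarithmic axis, with libraries at 0 counts drawn as triangles at the left edge. CCR4 has 0 counts in both controls and lies at 5.47 and 6.75 CPM in UHRF1 KO, while CCR10 overlaps between groups.

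Other CC and XC ligands were sparse in these cells: of 19 found in the table, 10 had 0 counts in every library and 4 were tested. CCL3L1, the copy of CCL3, had 8 and 4 counts in control and 127 and 195 in UHRF1 KO (log2 fold change 4.39, SE 0.31, edgeR adjusted p = 5.00e-14). XCL1 (lymphotactin, the ligand of XCR1) had 0 counts in both controls and 32 and 37 in UHRF1 KO, at least 18.4-fold higher (edgeR adjusted p = 3.70e-08). CCL24 (eotaxin-2) had 7 and 13 against 29 and 40 counts (log2 fold change 1.45, SE 0.41, edgeR adjusted p = 0.00271). None of those 3 met the CPM minimum in both controls. CCL4L2 had 6 and 12 against 14 and 20 counts and was not called (edgeR adjusted p = 0.304). CCL4, near-identical to CCL4L2, had 2 and 4 against 10 and 14 counts, a ratio of 3.19 (1.27 to 9.55), and XCL2 had 0 and 0 against 4 and 8.

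Of the 10 ligands, 7 lie within 1 Mb of another. CCL22, CX3CL1 and CCL17 sit on chromosome 16, with 6.27 kb between CCL22 and CX3CL1 and 19.7 kb between CX3CL1 and CCL17. All 3 rose, and their flanking protein-coding genes moved in both directions. PLLP, a myelin and epithelial membrane protein gene, had 46 and 51 counts in control and 211 and 263 in UHRF1 KO and was called higher too (log2 fold change 1.96), whereas CIAPIN1 (-0.30) and COQ9 (-0.46) were called lower and ARL2BP (-0.38, edgeR adjusted p = 0.096) was not called. Beside CCL5, HEATR9 rose from 4 and 4 to 29 and 39 counts (log2 fold change 2.73), and TAF15 was lower (-0.50). RDM1, which lies between CCL5 and CCL3 and was named after its values were seen, fell from 65 and 65 to 24 and 20 counts (log2 fold change -1.88). Around CCL20, DAW1 had a log2 fold change of 2.14, and around CCL28, NIM1K had 2.11 while HMGCS1 (-1.03) and C5orf34 (-1.30) were lower. Next to CCL2, ASIC2 was higher (log2 fold change 1.22), and CCL11 and CCL8 had 0 counts in all 4 libraries. Around CCL26, HIP1 (log2 fold change 0.58), CCL24 (1.45) and RHBDD2 (0.16) were called higher. SPDYE5, also beside CCL26, was not called (0.69, edgeR adjusted p = 0.0743). Of 24 flanking genes, which include the chemokine genes CCL4, CCL8, CCL11 and CCL24, 16 were tested, with 8 called higher and 6 lower. Of all genes tested, 32% were called higher and 30.1% lower. The flanking genes had a median log2 fold change of 0.37, against 0.02 for all genes tested. Of those called higher, HEATR9 and NIM1K passed the filter through UHRF1 KO alone and had to be higher. CCL24 did not meet the CPM minimum in both controls either. The flanking count and median include these genes, so they are a description only.

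**Figure D4:**
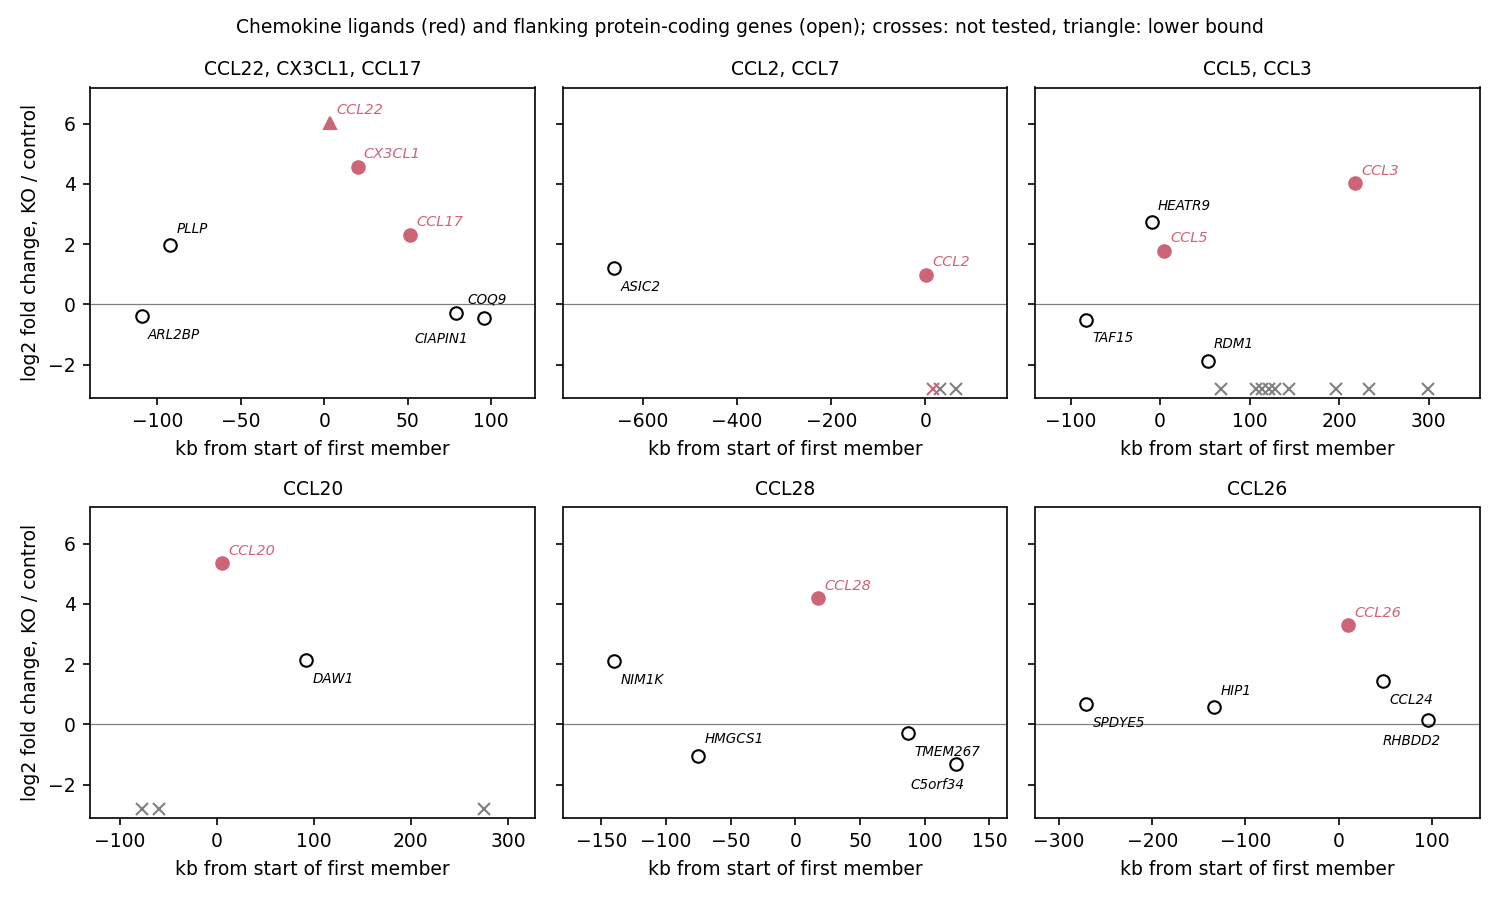
Log2 fold change of the ligands (filled) and their flanking protein-coding genes (open) by distance from the start of the first ligand of each run, in kb; crosses are genes not tested and a triangle is a lower bound. The ligands on chromosome 16 lie above zero between flanking genes on both sides of it.

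Among cytokines, receptors and adaptors (MYD88, TICAM1 and MAVS) of signals known to induce chemokines, 14 of 21 tested genes were called higher and 0 lower. Of all genes tested, 32% were called higher and 30.1% lower. The list had 0 lower at an unadjusted p under 0.05, and 14 higher and 0 lower with DESeq2 and limma-voom. The list's median log2 fold change was 0.99. Of the 18 that met the CPM minimum in both controls, 11 were higher; TNF, IL1B and TNFRSF1B passed the filter through UHRF1 KO alone and had to be higher. IL6 was at 5.39 ± 0.16 CPM in control and 81.4 ± 4.42 in UHRF1 KO (SD, n = 2; log2 fold change 3.91, edgeR adjusted p = 1.04e-27), IFNL1 had a log2 fold change of 2.69 and IL1B of 5.26. Of 28 transcription factors and regulators, 21 were called higher and 1 lower, with a median of 1.02. They belong to the NF-kB, AP-1, IRF and STAT families, with CEBPB, CEBPD and SP1 added. All 28 met the CPM minimum in both controls. Among all genes that met it, 26.7% were called higher and 34.5% lower. TNFAIP3 and NFKBIA, which are NF-kB targets that restrain the pathway, had log2 fold changes of 3.97 and 2.17, and FOSB, an AP-1 subunit, of 1.85. The 1 lower gene, REL (-0.23, edgeR adjusted p = 0.0459), was named after its value was seen and lost its call in 9 of 12 alternatives.

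Of 12 factors that regulate mRNA decay, some of them that of AU-rich transcripts such as many chemokine mRNAs, 5 were called higher and 5 lower. All genes tested were also balanced between directions, with 32% called higher and 30.1% lower. ZFP36 (log2 fold change 2.45) and ZC3H12A (2.36) were higher and HNRNPD (-0.74) was lower. Another list held genes linked to the cutting or binding of chemokines. They encode proteases, proteoglycans and the heparan sulfate synthesis enzymes EXT1, NDST1 and HS6ST1. Of the 17 tested, 13 were called higher and 1 lower, with a median of 0.88. Of the 15 that met the CPM minimum in both controls, 11 were higher and 1 lower. Among all genes that met it, 26.7% were called higher and 34.5% lower. CTSB had a log2 fold change of 1.73, SDC4 of 1.86 and MMP2 of 3.08. Named after their values were seen, the single lower gene was HS6ST1 (-0.25, edgeR adjusted p = 0.00109, and 0.0594 with total counts alone). Also named after their values were seen, ADAM10 and ADAM17, proteases that can shed CX3CL1, were not called in the test used throughout. For ADAM10 the log2 fold change was -0.06 (edgeR adjusted p = 0.230). It was 0.05 with total counts alone and was called at -0.14 without control 1. ADAM17 had 0.09 (edgeR adjusted p = 0.109), and was called at 0.20 with total counts alone, at 0.11 with upper-quartile factors (adjusted p = 0.0418) and at 0.11 with a minimum of 1 CPM in 2 libraries (adjusted p = 0.0435).

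**Figure D5:**
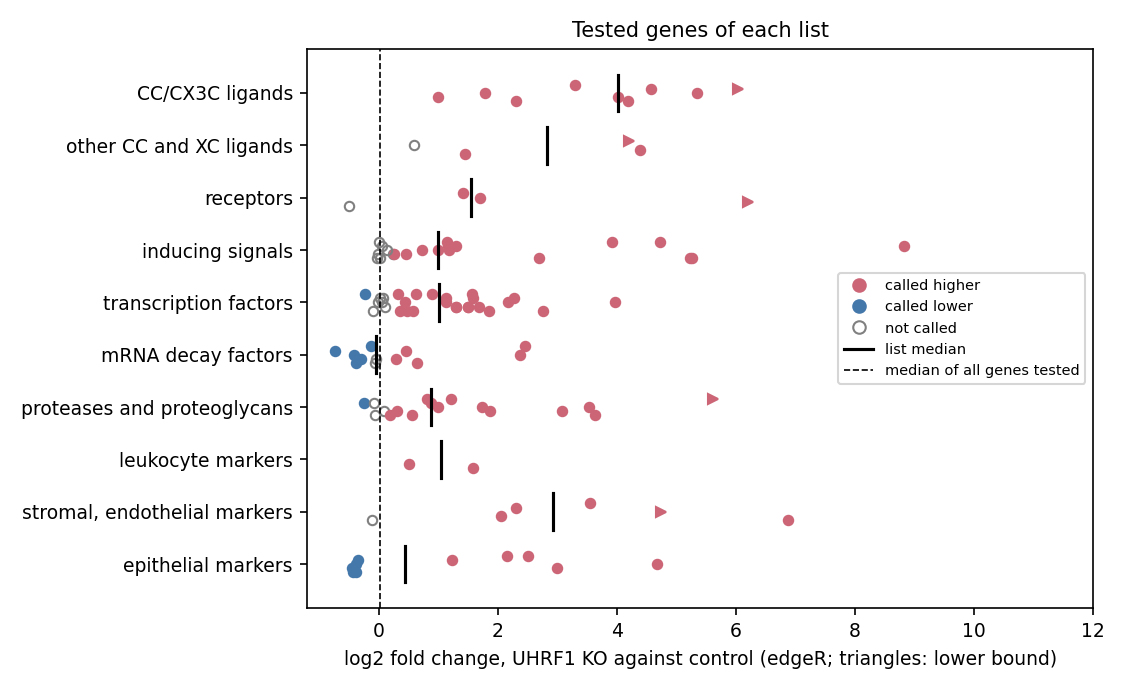
Log2 fold change of every tested gene by list, with list medians as vertical lines and lower bounds as triangles. The ligand median includes genes that passed the filter only through UHRF1 KO, so it is a description; the decay factors spread to both sides of 0.

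Markers of other cell types were counted beside the ligands. Of 18 leukocyte markers 2 were tested and called higher, CD14 (31 and 34 against 107 and 138 counts) and ITGAM (log2 fold change 0.50, edgeR adjusted p = 0.0341, lost in 4 of 12 alternatives). The summed leukocyte level was 7.29 and 6.04 CPM in control and 13.1 and 14.4 in UHRF1 KO. PTPRC, the pan-leukocyte gene, had 0 and 0 against 10 and 20 counts, and CD3E, CD2, MS4A1, AIF1 and CD163 had 0 in all 4 libraries. Of 12 stromal and endothelial markers 6 were tested, with 5 higher and 0 lower, but only 2 met the CPM minimum in both controls, of which 1 was higher; PECAM1, COL1A2, LUM and PDGFRB passed through UHRF1 KO alone and had to be higher. The summed level was 7.57 and 8.84 CPM against 57.5 and 59.5 CPM. PECAM1 rose from 7 and 2 to 607 and 759 counts, COL1A1 had a log2 fold change of 2.05 and COL1A2 was at least 27.0-fold higher. CDH5 had 0, 0, 3 and 0 counts and VWF 1, 0, 11 and 11, and neither passed the filter. Of 10 epithelial markers 5 were called higher, CLDN4, ELF3 and MUC1 having the smallest adjusted p, and 5 lower (KRT18, KRT7, KRT8, KRT19 and CDH1, named after their values were seen). For comparison, 32% of all genes tested were called higher and 30.1% lower. KRT8 stood at 2676 CPM in control against 2108 in UHRF1 KO, and each of the 10 epithelial markers had counts in every library. The part of these markers in the rise of the ligands was not tested.

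Genes with the profile most like the 2 ligands with the highest mean CPM over all 4 libraries (in control alone CCL2 stood above CCL20) were sought among 10658 protein-coding genes, by Euclidean distance over the 4 libraries on centred log2(CPM + 0.5). For CCL5 they were PLEKHA4 (0.0436), CTSB (0.0558) and SAT1 (0.0605). For CCL20 they were MAGEA3 (0.167), MAGEA11 (0.240) and TNF (0.251), of which MAGEA11 had 0 counts in both controls and TNF had 0 and 1 counts against 291 and 404. With 2 groups of 2 libraries, this measure mainly ranks genes by the size of their change on that scale. The added 0.5 CPM shrinks the change of genes near 0 in control, so near profiles need not share a fold change. The fitted log2 fold change was 5.34 for CCL20, 5.27 for MAGEA3 and 8.82 for TNF.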

How the data were processed

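Per the labels' protocols, Trizol-extracted A549 RNA was made into libraries with a SMARTER mRNA-Seq kit. The authors deposited raw read counts, as whole numbers, for each gene. FastQC 0.10.1 and GRCh38 are named in the submitters' processing notes; the sources used here do not name the aligner or counting tool, nor say how strand or multiply matching reads were treated. The 2 control columns were told apart by the replicate number in the titles.

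Symbols and positions came from GENCODE 29, in which all 58735 identifiers were found. The fit used edgeR 4.0.16 under R 4.3.3 (filterByExpr by group, TMM, glmQLFit with robust moderation, glmQLFTest, two-sided, Benjamini-Hochberg over 17030 genes). The SE was derived from the log2 fold change and the F statistic. Where both controls were at 0, a lower bound on the fold was set against 3 counts over both libraries; ratios of small counts carry exact binomial 95% intervals. Intervals and floors cover counting error only. One count is worth 0.0402 to 0.0561 CPM. Replicates differed beyond counting noise (chi-square over degrees of freedom 2.65 in control, 1.85 in UHRF1 KO). Promoters were taken from RefSeq and searched on both strands for motifs from general knowledge; the longer motifs are named without their letters. The fit was tested on simulated data.

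The ligands, the lists of related genes and the lists of markers were chosen with earlier results of these data known. Named genes are all ligands, UHRF1, up to 3 called genes with the smallest adjusted p per list, receptors and other ligands with at least 10 counts, flanking genes, and the 3 nearest profiles of the 2 ligands with the highest mean CPM over all libraries. Alternatives were other scalings and filters, DESeq2 1.42.0, limma-voom (limma 3.58.1), stricter thresholds, a replicate block and leaving out each library.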

Additional observations from a re-analysis of the deposited data

How the results depend on the processing

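In every alternative run 9 ligands were called higher and 0 lower, except that a minimum of 2-fold left 8 (without CCL2), with a highest adjusted p of 0.00183 (CCL17). Of these ligands, CCL3, CCL17, CCL22, CCL26 and CCL28 passed the filter only through UHRF1 KO. They had to be higher wherever that filter was used. In the main fit 32% of all genes tested were called higher. Scaling by total counts alone moved the median of all genes tested from 0.02 to 0.13 and the calls from 5445 higher and 5118 lower to 6564 and 3761. Leaving out 1 library gave 9014 to 10174 calls in all, against 10563. The replicate numbers are shared between groups, and the labels do not say whether same-numbered libraries were paired. The correlation of same-numbered deviations was -0.084, which cannot decide this with 2 libraries per group. With the replicate block 10266 genes were called, and 9 ligands higher and 0 lower. A minimum of 2-fold left 3048 genes (2616 higher, 432 lower), 2 higher and 0 lower decay factors, 7 higher and 0 lower processing genes, 0 lower epithelial markers, 0 lower transcription factors and 1 higher leukocyte marker. The lower transcription factor was lost (0 lower) with upper-quartile factors, total counts, 1 CPM in 2 libraries, DESeq2, limma-voom, the replicate block and an adjusted p under 0.01, and numbered 0 to 1 when a library was left out (0 without control 2, UHRF1 KO 1 or UHRF1 KO 2). Lower processing genes numbered 0 with total counts and 1 to 2 when a library was left out (2 without either control). Higher leukocyte markers numbered 4 with no filter, 1 with DESeq2, limma-voom or an adjusted p under 0.01, and 1 to 3 when a library was left out (1 without UHRF1 KO 2). Under the narrower kB motif 1 promoter matched instead of 2. For these shifts the cause was not tested. Depth limits CCL7, CCL22, CCL28 and CCL3, which had 0 to 4 counts per control library.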
